A study of Homo sapiens with 11 samples.

Results

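Zinc enters, leaves and is held in cells through a small set of gene products, and 10 of them were followed across xenograft tumours: the importers SLC39A8, SLC39A14, SLC39A6, SLC39A10, SLC39A1 and SLC39A7, the exporter SLC30A1 and the metallothioneins MT1X, MT2A and MT1E. They were picked by symbol out of 28152 gene symbols in the count table, with the difference between treated and vehicle tumours already known, so that difference is given below as a description and not as a test. All 10 had a row in the table, 9 passed the filter on low counts, and SLC39A7 was listed at 0 in every library. RNA was sequenced from xenografts labelled as the human breast cancer line BT-474, HR+/Her2+ for its hormone receptors and HER2. They were grown in the fourth mammary fat pad of female athymic nude mice. All mice carried an estradiol pellet of 0.72 mg made to last 90 days. Animals were enrolled above 95 cubic millimetres and injected under the skin every 4 days. The 6 vehicle tumours came from animals given 5% mannitol in water, and the 5 treated tumours from animals given evexomostat (SDX-7320) at 12 mpk, an inhibitor of the enzyme methionine aminopeptidase 2, in the same carrier. All libraries are labelled day 33. All tumours are labelled as 1 cell line, in a host that lacks a thymus. A portion of each tumour was used, so host cells may be included.

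ZIP proteins, encoded by the SLC39 genes, move zinc into the cytoplasm from outside the cell or from organelles, and ZnT proteins, encoded by the SLC30 genes, move it out. SLC39A8 (ZIP8) and SLC39A14 (ZIP14) also carry manganese, iron and cadmium, and both are known to respond to inflammatory signals, SLC39A8 as a target of the transcription factor NF-kB. Metallothioneins are small cysteine-rich proteins that bind zinc and copper. Their genes and SLC30A1 are switched on by the zinc sensor MTF1, which binds metal response elements, and metallothionein genes also respond to glucocorticoids.

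Library totals were 22808033 to 39249329 counts, and a count of 3 corresponds to 0.0764 to 0.132 RPM, reads scaled to a library total of 1000000. The top 100 genes took 23.9% of the reads of vehicle replicate 001 and 16.2% to 17.9% of those of the other 10 libraries, so values are also given without that library. Of 10 luminal breast epithelium markers, the keratin genes KRT8 and KRT18 were well expressed, at group means of 346.0 and 134.3 CPM under vehicle and 317.6 and 165.7 CPM under evexomostat. Of the genes of the labelled receptor status, ESR1 reached at most 0.624 CPM and PGR 0.143 CPM (RPM after TMM scaling, below). ERBB2 was at 26.7 to 66.5 CPM. Of the other luminal markers, EPCAM, FOXA1, KRT19 and CDH1 averaged 0.427 to 3.44 CPM in each group, and GATA3 6.25 and 6.79 CPM. ESR1 and PGR RNA was thus scarce in tumours labelled HR+. The line is named here by its label alone, and its identity was not tested. The summed level of 8 markers of haematopoietic cells was 62.8 to 96.0 RPM under vehicle and 68.9 to 85.8 RPM under evexomostat. CD68 (42.3 and 34.4 CPM under vehicle and evexomostat) and LYZ (27.0 and 28.5 CPM) had the highest means. CD14 averaged 5.49 and 6.28 CPM, and PTPRC, CSF1R and TYROBP 1.49 to 2.23 CPM in each group. FCER1G averaged 0.251 and 0.149 CPM, and AIF1 below 0.1 RPM. Skeletal muscle markers summed to 306 RPM in the highest evexomostat library against 9.94 RPM in the highest vehicle library. The medians were 14.2 RPM under evexomostat and 4.49 RPM under vehicle, and the lowest values 1.12 and 0.949 RPM. In bulk tumours, fewer cells of a type and less RNA per cell cannot be told apart.

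SLC39A8, the importer with the widest difference, was lower in every treated tumour than in any vehicle tumour. Its level in CPM, which is RPM scaled with trimmed mean of M-values (TMM) factors, ran from 124.5 to 414.8 under vehicle, with a median of 225.0. Under evexomostat it was 35.2, 65.3, 42.4, 60.6 and 50.4 CPM in replicates 002, 003, 004, 005 and 007. The groups did not overlap, vehicle replicate 004 was the highest, and vehicle replicates 001 and 005, at 128.4 and 124.5 CPM, were the lowest of their group. The means were 234.1 ± 109 CPM (SD, n = 6) and 50.8 ± 12.5 CPM (SD, n = 5), 4.61-fold lower under evexomostat, which is a log2 ratio (evexomostat over vehicle) of -2.21 (SE 0.31) in edgeR's quasi-likelihood fit over 16653 genes. Without vehicle replicate 001 it was -2.32.

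SLC39A14, the importer closest to SLC39A8 in the metals it carries, was the other member with a large difference. Vehicle tumours held 142.9 to 494.8 CPM, with a median of 313.5, and evexomostat tumours held 146.9, 71.6, 121.3, 100.9 and 118.0 CPM in replicates 002, 003, 004, 005 and 007. The groups overlapped through vehicle replicate 001 alone, at 142.9 CPM, since the next vehicle tumour was at 199.7 CPM. The means were 302.0 ± 123 CPM (SD, n = 6) and 111.7 ± 27.8 CPM (SD, n = 5), a log2 ratio of -1.43 (SE 0.29). Without vehicle replicate 001 it was -1.57.

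SLC39A8 and SLC39A14 were the 2 of 9 tested members past an adjusted p of 0.05 in the fit across all genes, both lower, where 0.606% of all tested genes were past it in either direction. SLC39A8 was the 1 of 9 whose groups did not overlap in CPM, against 2.97% of all tested genes (1.64% lower and 1.33% higher). These calls were part of how the members came to be chosen, and nothing is read from the counts. The call of SLC39A8 was lost without evexomostat replicate 002, 005 or 007, at log2 ratios of -2.10, -2.28 and -2.20, in fits that called 2, 1 and 3 genes in all. The call of SLC39A14 was lost without any single library other than vehicle replicates 001 and 006, at -1.24 to -1.55. The authors' deposited table, which compares the same groups, gives log2 ratios of -2.12 for SLC39A8 and -1.36 for SLC39A14. These are also the 2 members with an adjusted p under 0.05 there, where 268 genes in all were under it.

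**Figure D1:**
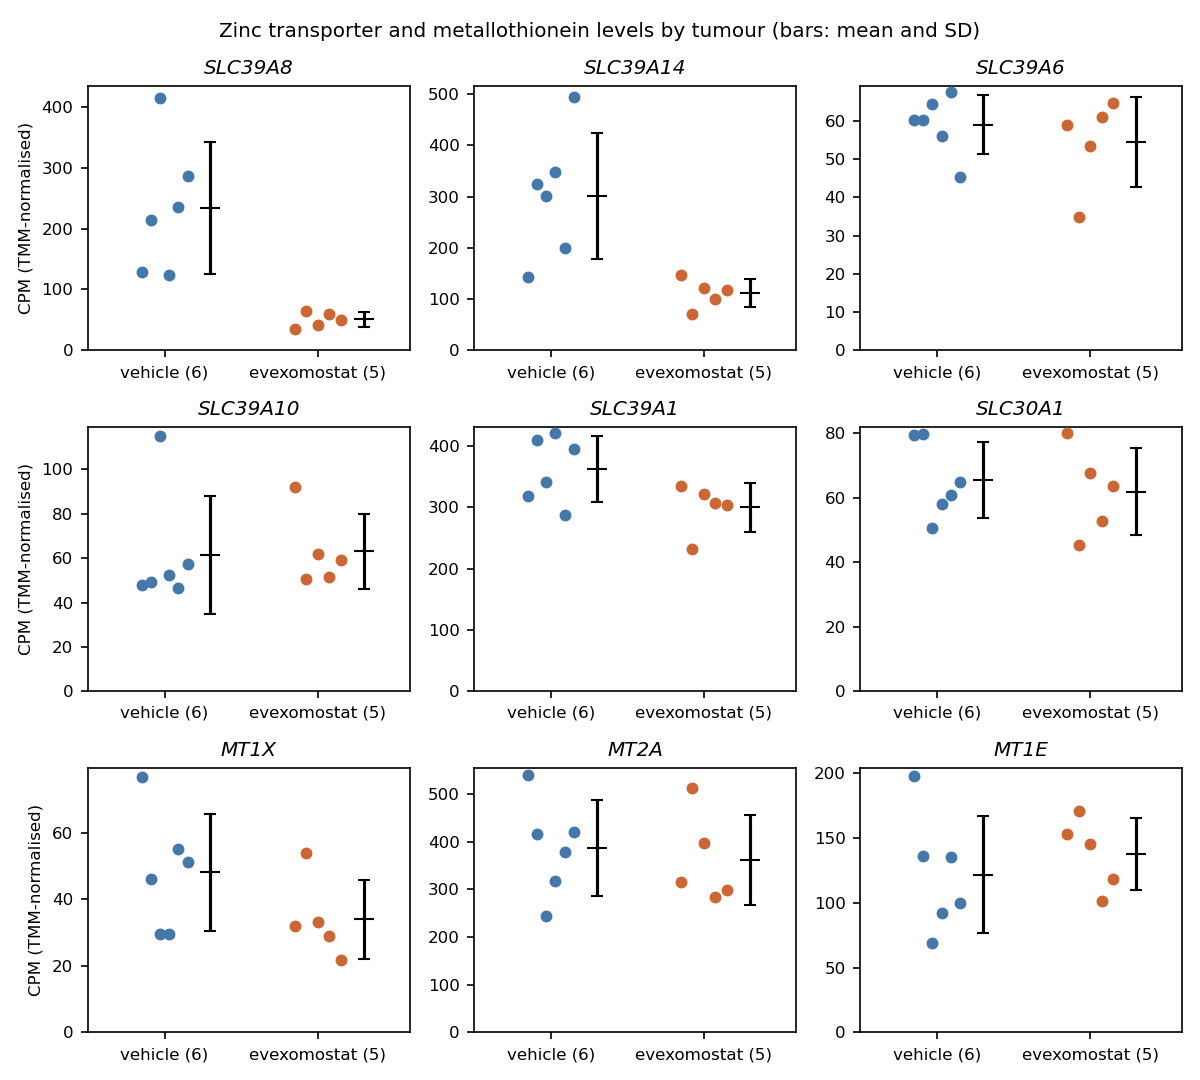
Level of the 9 tested members in each tumour, in TMM-normalised CPM on linear axes that start at 0, with vehicle tumours (n = 6) in blue, evexomostat tumours (n = 5) in orange, and the group mean and SD as bars. SLC39A8 is at or below 65.3 CPM in all treated tumours and at or above 124.5 CPM in all vehicle tumours, while the other panels overlap.

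The remaining importers overlapped between the 2 groups. SLC39A1 (ZIP1), an importer of the cell surface found in most tissues, was at 288.4 to 421.7 CPM under vehicle and 232.9 to 335.7 CPM under evexomostat, with a log2 ratio of -0.27 (SE 0.14). SLC39A6 (ZIP6, also called LIV-1), an importer known from estrogen-responsive breast cancer, was at 45.4 to 67.4 and 34.9 to 64.7 CPM, with a log2 ratio of -0.11 (SE 0.16). Evexomostat replicate 003 held the lowest value of both genes, and without it SLC39A6 was at 0.0132. SLC39A10 (ZIP10), the closest relative of SLC39A6, was at 46.6 to 115.1 CPM under vehicle and 50.6 to 92.1 CPM under evexomostat, and its log2 ratio of 0.04 (SE 0.25) changed sign when any of 5 single libraries was left out. Vehicle replicate 004 and evexomostat replicate 002 each stood far above the rest of their group.

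SLC39A7 (ZIP7), which releases zinc from the endoplasmic reticulum, was listed at 0 counts in all 11 libraries. Of the 5 protein-coding genes on each side of it in RefSeq's order, all 10 were in the table and 5 were also at 0 in every library, among them RING1. RPS18, a ribosomal protein gene of that stretch, had 50 counts over all libraries together. Overall 13.1% of symbols in the table were at 0 throughout. No level of SLC39A7 is therefore given, and why the stretch is near 0 was not tested.

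SLC30A1 (ZnT1), the zinc exporter of the cell surface, was at 50.5 to 79.8 CPM under vehicle, with a median of 62.9, and at 80.3, 45.4, 67.8, 52.8 and 63.7 CPM under evexomostat in replicates 002, 003, 004, 005 and 007. The groups overlapped over almost their whole range. The log2 ratio was -0.08 (SE 0.17), and its sign turned without evexomostat replicate 003, at 0.0111, and at 0.00488 on the RPM scale.

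Metallothioneins were abundant in both groups and overlapped between them. MT2A, the most abundant of them, was at 244.3 to 539.7 CPM under vehicle (median 397.1) and at 315.1, 512.7, 396.8, 284.1 and 299.6 CPM under evexomostat in replicates 002, 003, 004, 005 and 007, a log2 ratio of -0.09 (SE 0.21). Its sign turned without vehicle replicate 001, at 0.0315, and on the RPM scale, at 0.00835. MT1E was at 69.4 to 197.8 CPM (median 117.7) and at 153.2, 171.3, 145.6, 101.4 and 118.3 CPM, with a log2 ratio of 0.18 (SE 0.24), or 0.38 without vehicle replicate 001. MT1X was at 29.5 to 76.7 CPM (median 48.6) and at 32.01, 53.79, 33.10, 28.95 and 21.88 CPM, with a log2 ratio of -0.50 (SE 0.27), or -0.31 without that library. In all 3 genes the highest vehicle value was in vehicle replicate 001 and the highest evexomostat value in evexomostat replicate 003. Metallothionein transcripts resemble each other, and windows of 50 bases in the longest coding transcript were searched for in other metallothionein genes and pseudogenes. Exact matches were found for 10.6% of windows in MT1E, 4.88% in MT2A and 0% in MT1X. MT1X was among the genes that held windows of MT2A, so the 0% holds for the MT1X transcript searched and not for the gene. The split of reads among these genes is therefore uncertain.

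Levels of different genes were compared per length, as RPM per kb of the longest GENCODE 29 transcript. Under vehicle, MT2A led with 411.3 ± 87.1 RPM per kb (SD, n = 6), above MT1E at 160.3 ± 51.8 in ranges that did not meet. MT1E and SLC39A1, at 129.4 ± 21.0, overlapped, and the lowest SLC39A1 value, 100.7, lay just under the highest of SLC39A14. SLC39A14 at 63.5 ± 25.8 and SLC39A8 at 57.1 ± 27.9 overlapped throughout, since they spanned 26.5 to 101.9 and 27.4 to 103.3 RPM per kb. SLC39A6 at 16.2 ± 2.69, SLC30A1 at 11.6 ± 1.76 and SLC39A10 at 11.1 ± 5.08 RPM per kb followed and overlapped in turn. For MT1X the longest transcript is a retained intron form of 1727 bases, giving 26.7 ± 8.55 RPM per kb, while its longest coding transcript of 538 bases gives 85.7 ± 27.5.

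Under evexomostat the order below SLC39A1 (114.1 ± 12.7 RPM per kb, SD, n = 5) differed. SLC39A14 was at 24.8 ± 5.57 RPM per kb. SLC39A8 was at 13.1 ± 3.57, overlapping SLC39A6 at 15.9 ± 3.15, SLC39A10 at 12.0 ± 2.92 and SLC30A1 at 11.7 ± 2.25. Of 39 genes of these families ranked by level per length, SLC39A8 was at position 5 under vehicle and 10 under evexomostat. With coding transcript lengths, which put MT1X at position 4 in both groups, SLC39A8 was at position 6 under vehicle and 10 under evexomostat. Levels per length were also summed over all 14 SLC39 genes. SLC39A7 entered that sum and the ranking as 0, and no level of it is given here, so neither covers it. The share of SLC39A8 in the sum was 14.8% ± 5.59 (7.98% to 23.7%, SD, n = 6) under vehicle. Under evexomostat it was 4.66% ± 1.59 (2.85% to 6.88%, SD, n = 5). The sum itself was 262.9 to 435.2 RPM per kb under vehicle and 255.2 to 308.0 under evexomostat, and those ranges overlapped through vehicle replicate 001 alone, since the next vehicle library was at 354.6.

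Among the other genes of zinc and metal handling, 44 in 4 lists, 30 were tested and none passed an adjusted p of 0.05 in edgeR, against 0.606% of all tested genes. At an unadjusted p under 0.05 there were 7 of 30, against 13.4% of all tested genes, and DESeq2 called 3 (SLC11A1, TFRC and FTH1) where it called 3.92% of all genes. Of the other SLC39 importers 5 of 8 were tested, 3 with a higher and 2 with a lower level, where 44.6% of all tested genes were higher. Their median log2 ratio was 0.03 against -0.04 over all tested genes. The largest differences were in SLC39A4, the importer of dietary zinc, from 113.2 ± 25.1 CPM (SD, n = 6) to 132.3 ± 11.6 CPM (SD, n = 5), a log2 ratio of 0.23 (SE 0.15, edgeR's adjusted p 0.585), and in SLC39A11 at -0.13 (SE 0.15, edgeR's adjusted p 0.779). Of the SLC30 exporters and TMEM163, 7 of 10 were tested, with a median of -0.12. SLC30A7, which loads zinc into the secretory pathway, did not overlap between the groups in CPM, nor did 2.97% of all tested genes. It was at 36.8 ± 6.58 and 29.8 ± 0.723 CPM, with a log2 ratio of -0.30 (SE 0.13, edgeR's adjusted p 0.325). Without vehicle replicate 001 the ratio was -0.19. Before TMM scaling the groups overlapped, at 3.97 to 5.40 RPM per kb under vehicle and 3.65 to 4.20 under evexomostat. TMEM163 was at -0.81 (SE 0.50, edgeR's adjusted p 0.528), at no more than 2.56 CPM in any library.

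The other metallothioneins were scarce. Of these 10 genes and MTF1, 3 were tested, with a median log2 ratio of -0.12. MT1F was at 2.72 to 17.0 CPM under vehicle and 5.33 to 10.2 CPM under evexomostat, a log2 ratio of -0.12 (SE 0.39, edgeR's adjusted p 0.933) that turned to 0.22 without vehicle replicate 001. MT1G was below 1 CPM in every library, with a log2 ratio of -0.21 (SE 0.34, edgeR's adjusted p 0.859). MTF1 was at 33.9 ± 4.82 and 32.5 ± 3.85 CPM, a log2 ratio of -0.06 (SE 0.13, edgeR's adjusted p 0.900). MT1B and MT1JP had 0 counts throughout, and MT1A, MT1H, MT1L, MT1M, MT3 and MT4 had at most 8 counts in any library.

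Carriers and stores of iron, manganese, copper and magnesium, metals some of which SLC39A8 and SLC39A14 also move, were mostly at lower levels under evexomostat. All 15 were tested, 13 with a lower and 2 with a higher level, where 44.6% of all tested genes were higher. Their median log2 ratio was -0.26 against -0.04 over all tested genes. The largest differences were in SLC11A1, an iron and manganese carrier of phagocytes, which stayed below 1.1 CPM (log2 ratio -1.43, SE 0.37, edgeR's adjusted p 0.105), and in the ferritin heavy chain gene FTH1, from 1284 ± 501 CPM (SD, n = 6) to 678.2 ± 72.4 CPM (SD, n = 5), at -0.92 (SE 0.26, edgeR's adjusted p 0.133). The transferrin receptor gene TFRC, named after its value was seen, went from 299.9 ± 33.7 to 169.7 ± 40.7 CPM with no overlap, at -0.82 (SE 0.17, edgeR's adjusted p 0.0503). Without vehicle replicate 001, edgeR called 4 of the 15, all lower (SLC11A2, TFRC, FTH1 and CNNM4), where 5.22% of all genes tested in that fit were called in either direction, 3.24% as lower and 1.98% as higher.

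**Figure D2:**
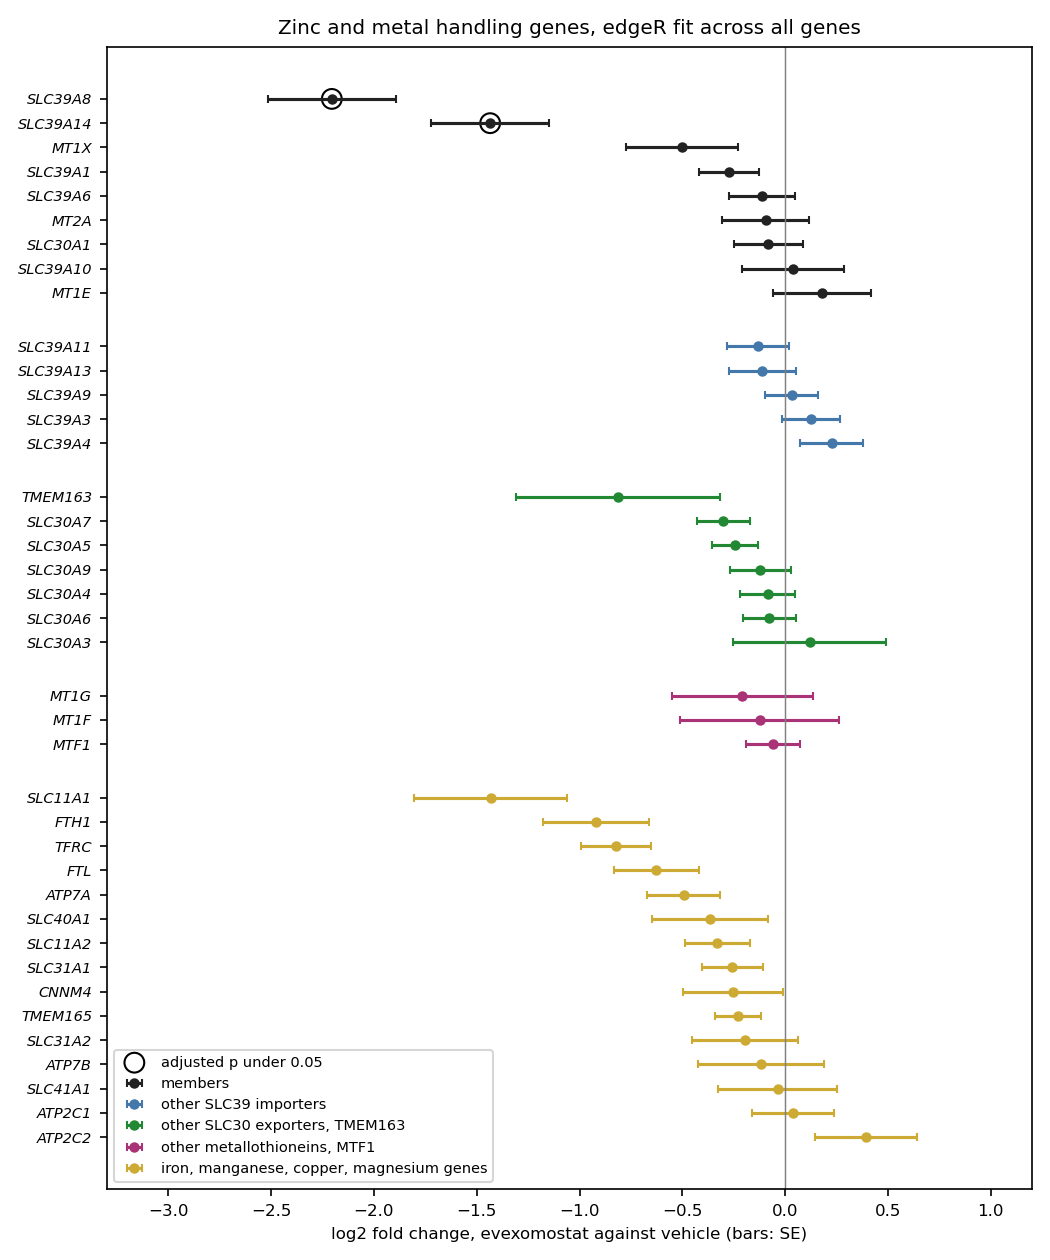
Log2 ratio of evexomostat against vehicle for the 9 tested members and 30 other tested genes of zinc and metal handling, with the SE as bars and a ring around genes at an adjusted p under 0.05 in edgeR. SLC39A8 at -2.21 and SLC39A14 at -1.43 carry the only rings, and 13 of the 15 iron, manganese, copper and magnesium genes lie left of 0. Over all tested genes, 44.6% had a ratio above 0.

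Targets of pathways known to act on some members were also lower under evexomostat, and their part in these differences was not tested. All 12 NF-kB targets were at lower levels, 4 of them past an adjusted p of 0.05 in edgeR (RELB, BIRC3, ICAM1 and SOD2) where 0.432% of all tested genes were called as lower, with a median log2 ratio of -0.76. Their summed level was 3373 to 4520 RPM under vehicle and 1845 to 2548 RPM under evexomostat. All 12 hypoxia genes were lower, 1 past the threshold (P4HA1, at -1.37), with a median of -1.25. Their sums overlapped, at 1914 to 5428 RPM under vehicle and 1593 to 2289 RPM under evexomostat. All 9 tested glucocorticoid response genes were lower, 1 past the threshold (NFIL3), with a median of -0.47. The sums of that list overlapped too, at 639.2 to 962.9 and 623.4 to 837.3 RPM. At an unadjusted p under 0.05 in edgeR there were 9 of 12 NF-kB targets, 11 of 12 hypoxia genes and 1 of 9 glucocorticoid response genes, against 13.4% of all tested genes. Over all tested genes the median was -0.04, and 44.6% had a higher level under evexomostat. Without vehicle replicate 001 the calls, all lower, numbered 8 of 12 NF-kB targets, 6 of 12 hypoxia genes and 1 glucocorticoid response gene, where 3.24% of all genes were called as lower. The 6 calls made with all libraries held in 7 (BIRC3) to 16 (SOD2) of 19 alternative fits.

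Variation among tumours of the same group does not use the difference between groups, and it was described as the correlation over 11 libraries of log2 CPM after the mean of each group was removed. These points share the libraries and their depth. MT1X, MT2A and MT1E varied together, with Pearson's r of 0.904 for MT1X and MT2A, 0.863 for MT2A and MT1E and 0.839 for MT1X and MT1E, and 0.868, 0.811 and 0.762 without vehicle replicate 001. SLC39A8 had no such r with them, at -0.297 with MT2A, -0.527 with MT1E and -0.13 with MT1X, or -0.0656, -0.323 and 0.181 without vehicle replicate 001. Vehicle replicate 004 had the highest SLC39A8 and the lowest MT2A, MT1E and MT1X of the vehicle tumours, while vehicle replicate 001 had the highest metallothioneins and an SLC39A8 level 0.74 below the group mean on the log2 scale.

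SLC39A8 and SLC39A14, which were both lower under evexomostat, showed little common variation within the groups (r = 0.126, and -0.291 without vehicle replicate 001). SLC39A14 varied instead with SLC39A1 (r = 0.811, and 0.858 without that library). SLC39A8 and the exporter SLC30A1 varied in opposite directions, at -0.628 and -0.55. SLC39A6 was opposite to MT2A, at -0.614 and -0.747, and so was SLC39A10, at -0.619 and -0.601. Every tested SLC39 member had a negative r with MT1X, MT2A and MT1E over all libraries. Without vehicle replicate 001, SLC39A8 with MT1X was at 0.181.

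**Figure D3:**
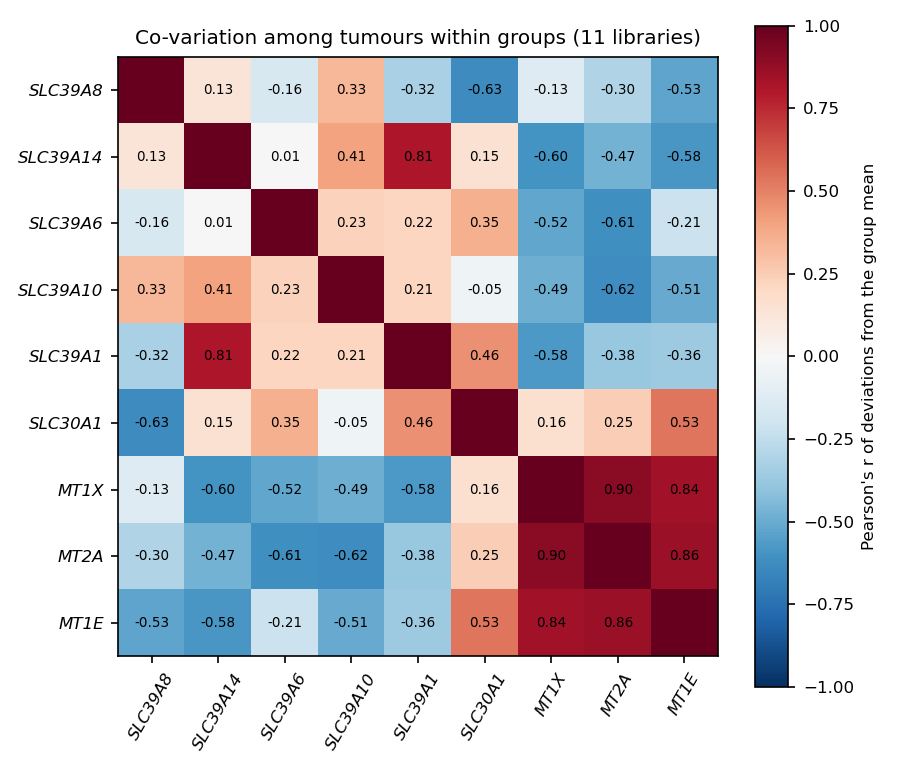
Pearson's r between members over 11 libraries, computed on log2 CPM after removal of each group's mean, from -1 (blue) to 1 (red). The 3 metallothioneins form a block between 0.839 and 0.904, SLC39A14 pairs with SLC39A1 at 0.811, and SLC39A8 has no r above 0.332.

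Metallothionein transcripts are short, and the libraries differed in how their levels depended on transcript length. Over 12658 genes each doubling of length went with a change of -0.303 in the log2 deviation from the group mean in vehicle replicate 001 and of -0.0681 in evexomostat replicate 003, the lowest slope of each group. These are the libraries in which MT2A was 0.53 and 0.54 above its group mean. Vehicle replicate 004, where MT2A was 0.62 below the mean, had a slope of 0.0647, within the 0.026 to 0.0891 of the other 4 vehicle libraries. The part of this trend in the metallothionein levels was not tested.

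**Figure D4:**
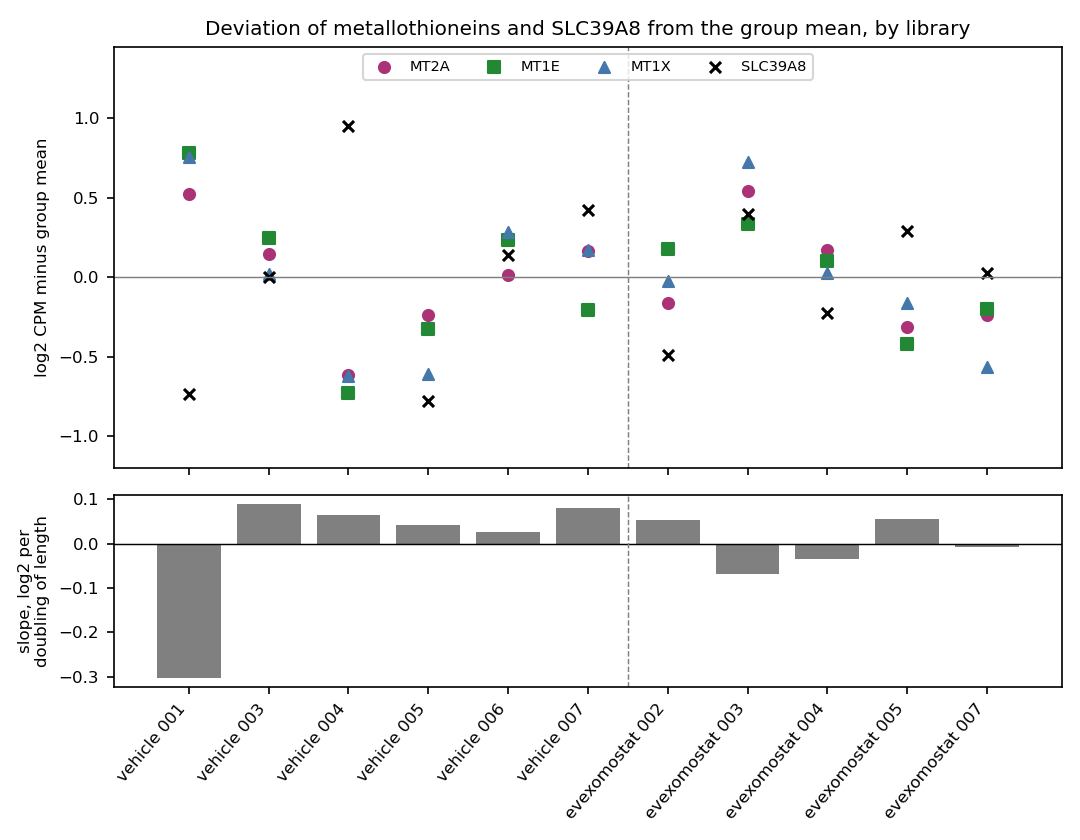
Upper panel: log2 CPM of MT2A, MT1E, MT1X and SLC39A8 minus the mean of the library's group, for each of the 11 libraries. Lower panel: slope of all genes' deviations on log2 transcript length in the same libraries, where vehicle replicate 001 at -0.303 stands lowest and also has MT2A at 0.53.

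The gene most like MT2A in this sense was CEBPD, a transcription factor gene of the acute phase and glucocorticoid responses, at r = 0.977 among 13067 genes compared, and 0.969 without vehicle replicate 001. CEBPD itself was at 118.0 ± 42.9 CPM (SD, n = 6) and 95.7 ± 40.6 CPM (SD, n = 5), a log2 ratio of -0.30 (SE 0.29, edgeR's adjusted p 0.726). GEMIN8 (0.927), PLCB1 (0.911), NMNAT3 (0.905) and MT1X (0.904) came next. Of these 5, 3 were also among the 5 highest by Spearman's rho and 2 without vehicle replicate 001. The other glucocorticoid response genes ran from -0.217 for DUSP1 to 0.399 for TSC22D3, and from -0.193 for SGK1 to 0.588 for ZBTB16 without vehicle replicate 001. The median of all 9, CEBPD included, was 0.18 against -0.0255 over all genes, and 0.416 against -0.0109 without that library.

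For SLC39A8 the 5 highest were SULF2 (0.937), RBM4 (0.919), PLPP1 (0.915), TMEM182 (0.913) and PTGS1 (0.913). None of these 5 was among the 5 highest by Spearman's rho, and without vehicle replicate 001 SULF2 alone was, at 0.925. NF-kB targets had a median r of 0.205 with SLC39A8, hypoxia genes 0.363 and glucocorticoid response genes 0.192, against -0.00453 over all genes compared. Without vehicle replicate 001 these medians were 0.109, 0.221 and 0.135, against -0.0303. SLC39A14 differed: its r with the 11 hypoxia genes compared ran from 0.509 for CA9 to 0.826 for SLC2A1, with a median of 0.724 (0.685 without vehicle replicate 001) against 0.0357 over all genes. With the 12 metal carriers and stores its median was 0.707 (0.58 without that library), led by SLC11A2 at 0.882 and CNNM4 at 0.815, and FTL went the other way at -0.414, or -0.013 without that library. Among NF-kB targets, NFKB1 reached 0.902 with SLC39A14 (0.849 without vehicle replicate 001) and the list's median was 0.113.

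**Figure D5:**
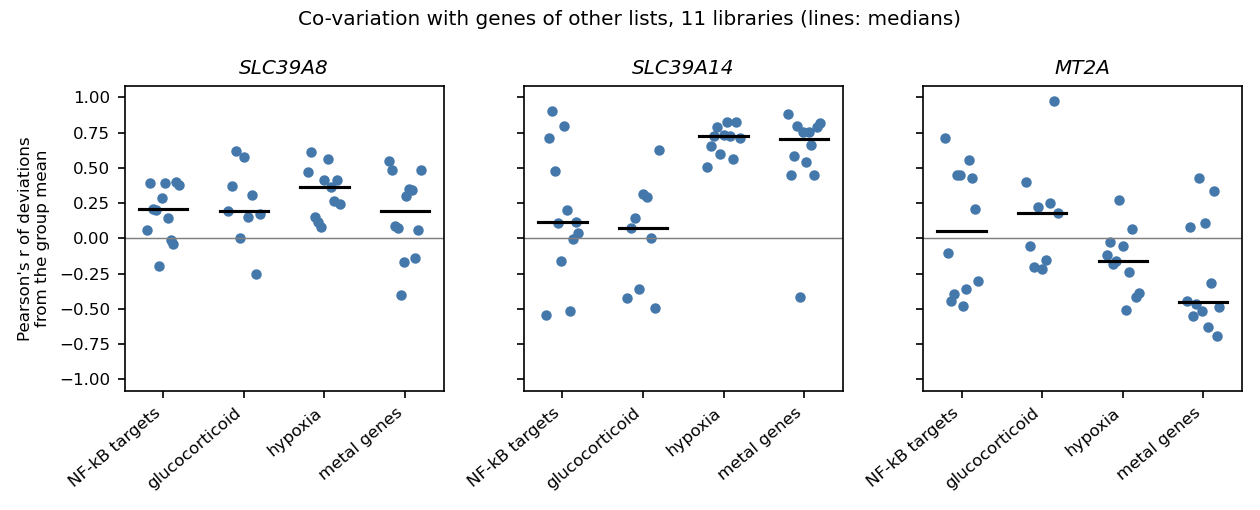
Pearson's r of SLC39A8, SLC39A14 and MT2A with each gene of 4 lists over 11 libraries, on log2 CPM after removal of each group's mean, with list medians as lines. All 11 hypoxia genes lie above 0.5 for SLC39A14, and CEBPD is the point at 0.977 for MT2A.

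Because the metallothioneins varied together and MTF1 acts on them and on SLC30A1, the 250 bases before the most upstream RefSeq start (GRCh38.p14) were searched on both strands for the metal response element core, as TGCACNC or TGCGCNC. Entries were found for 8 of the 10 members and, with the other metallothioneins and MTF1, for 12 of 21 genes. At least 1 match was present in 24.7% of 27305 promoters of that length, at least 3 in 1.57% and at least 4 in 0.381%. The promoter of MT2A held 7 matches, MT1X 4, SLC30A1 1, SLC39A6 1 and SLC39A8 1, while SLC39A10, SLC39A1, SLC39A7 and MTF1 held 0, and no matches overlapped. The promoters of the 2 metallothioneins that led the shared variation are shown with those of SLC30A1, SLC39A8 and MT1H (the one with the most matches, 8, yet almost no reads), 5′ to 3′ on the gene's strand, with matches in capitals.

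MT2A (chr16:56608334-56608583, plus strand): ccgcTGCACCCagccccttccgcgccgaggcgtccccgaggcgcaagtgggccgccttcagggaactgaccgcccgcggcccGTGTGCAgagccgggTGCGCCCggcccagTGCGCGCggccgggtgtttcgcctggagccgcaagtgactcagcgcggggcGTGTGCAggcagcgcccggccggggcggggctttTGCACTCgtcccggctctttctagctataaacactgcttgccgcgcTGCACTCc

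MT1X (chr16:56682220-56682469, plus strand): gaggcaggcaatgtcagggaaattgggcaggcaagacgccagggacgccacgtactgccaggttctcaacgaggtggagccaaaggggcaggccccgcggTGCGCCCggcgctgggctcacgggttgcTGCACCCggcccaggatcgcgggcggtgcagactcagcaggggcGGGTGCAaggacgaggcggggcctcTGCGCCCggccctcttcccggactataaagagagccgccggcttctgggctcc

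SLC30A1 (chr1:211579162-211579411, minus strand): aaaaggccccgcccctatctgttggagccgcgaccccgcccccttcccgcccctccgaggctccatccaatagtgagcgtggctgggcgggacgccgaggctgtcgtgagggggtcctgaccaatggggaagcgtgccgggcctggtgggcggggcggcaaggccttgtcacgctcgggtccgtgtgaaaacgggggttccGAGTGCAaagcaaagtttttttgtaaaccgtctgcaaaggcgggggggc

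SLC39A8 (chr4:102345483-102345732, minus strand): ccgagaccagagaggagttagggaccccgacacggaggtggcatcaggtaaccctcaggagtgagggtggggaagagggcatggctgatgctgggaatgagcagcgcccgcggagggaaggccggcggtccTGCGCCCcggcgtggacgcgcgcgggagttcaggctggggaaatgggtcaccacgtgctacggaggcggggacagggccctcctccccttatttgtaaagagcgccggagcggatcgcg

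MT1H (chr16:56669564-56669813, plus strand): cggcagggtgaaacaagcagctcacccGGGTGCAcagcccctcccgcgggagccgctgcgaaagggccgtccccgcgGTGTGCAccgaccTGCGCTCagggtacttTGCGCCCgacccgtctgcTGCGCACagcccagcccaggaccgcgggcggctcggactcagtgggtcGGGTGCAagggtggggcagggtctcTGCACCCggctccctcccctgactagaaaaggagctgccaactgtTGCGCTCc

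A match describes letters and not a bound site. MT1H, with 8 matches, had at most 1 count in any library, while MT2A, with 7, had at least 8537. SLC30A1, with 1 match, was at r = 0.246 with MT2A within the groups (0.0666 without vehicle replicate 001), and SLC39A8, with 1, at -0.297. MTF1 itself was at -0.544 with MT2A, -0.45 with MT1X and -0.632 with MT1E, or -0.375, -0.231 and -0.451 without vehicle replicate 001. With SLC30A1 it was at 0.0186, or 0.275 without that library. The part of MTF1 in the shared variation was not tested. SLC39A8 has 3 start sites in RefSeq, of which the most upstream is shown.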

How the data were processed

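Counts, RPM values and a comparison table were used as deposited. The authors deposited raw read counts per gene symbol and RPM, each equal to its count over the column total within 9e-13, per the file headers and values. The authors' deposited table holds log2 fold changes and p-values. The submitters' processing notes name bcl2fastq 2.17, STAR 2.7.5c, featureCounts (Subread), edgeR and GRCh37 (hg19); annotation, use of strand and handling of mouse reads are not given in the sources used here.

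Columns were matched to libraries by the code in the sample description and groups taken from the titles; labels do not say that tumours of a group came from separate animals, so p-values measure the spread between these samples. Genes were kept with filterByExpr (minimum count 10, total 15) and compared with edgeR 4.0.16 (R 4.3.3): TMM factors, quasi-likelihood F-test, no covariate, Benjamini-Hochberg adjustment over 16653 genes. Log2 CPM used a prior count of 2. The SE is the one implied by F. In simulated data for this comparison (16507 genes tested), edgeR recovered 49% of changes of 1 and 91.6% of changes of 2 on the log2 scale, with 4.23% of calls false. DESeq2 recovered 62% and 96.8%, with 20.2% of calls false. The simulated counts varied independently between genes, with no library that stood apart and no trend with transcript length. These rates may therefore not hold for the real libraries, where vehicle replicate 001 stood apart.

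Named genes were all members, listed genes past the threshold or else the 2 of each list with the largest absolute log2 fold change, and the 5 genes most correlated with SLC39A8 or MT2A at a mean log2 CPM of at least 1. Members and lists were chosen with earlier results of these data known. Lengths came from GENCODE 29. Alternatives were other scaling factors, DESeq2 1.42.0, no count filter, limma-trend (limma 3.58.1) on log2(RPM + 1) and log2(RPM + 0.1), a replicate block, each library left out and, chosen after the data were seen, coding transcript lengths. Sequences are RefSeq's, and counts carry no coordinates.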

Additional observations from a re-analysis of the deposited data

Results flagged for a closer look

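Over the 9 tested members and both groups, 18 sets of values were searched at both ends for a tumour far from the others, and chance marks about 1 set in 20. SLC39A10 gave both that were found. In vehicle replicate 004 it reached 115.1 CPM, with 46.6 to 57.2 CPM in the other vehicle libraries. In evexomostat replicate 002 it reached 92.1 CPM, with 50.6 to 62.0 CPM in the other evexomostat libraries.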

How the results depend on the processing

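SLC39A8 kept its direction in all 19 alternatives, between -2.33 and -1.96, and SLC39A14 in all 19, between -1.85 and -1.24. SLC39A1, MT1X and MT1E also kept theirs in all 19, and SLC39A6, SLC39A10, SLC30A1 and MT2A did not. For every change that follows, the cause was not tested. Genes called over all genes went from 101 to 649 with DESeq2, and from 1 to 865 when each library was left out, with 2, 1 and 3 genes without evexomostat replicates 002, 005 and 007 and 865 without vehicle replicate 001. Lower calls went from 72 to 42 with upper quartile scaling and to 31 and 30 on the RPM scale. The 0 calls among other zinc and metal genes became 3 with DESeq2 and 0 to 4 with a library left out. SLC39A8 ranged from -2.33 to -1.96 with a library left out. On the RPM scale the median log2 ratio over all genes shifted by 0.114 and 0.137, and there SLC30A1 was at 0.00488 and 0.00483, MT2A at 0.00835 and 0.00836 and MT1F at 0.121 and 0.158. SLC39A14 was past the threshold in 8 of 19 alternatives and SLC39A8 in 15. Across the fits that left out a library, SLC39A6 ran from -0.18 to 0.0132, SLC39A10 from -0.139 to 0.315, SLC30A1 from -0.194 to 0.0111, MT2A from -0.253 to 0.0315 and MT1F from -0.302 to 0.216. Coding transcript lengths moved MT1X from 26.7 to 85.7 RPM per kb under vehicle and from 20.5 to 65.9 under evexomostat. They also moved SLC39A8 from position 5 to 6 under vehicle.

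Vehicle and evexomostat tumours share the numbers 003, 004, 005 and 007. Their deviations from the group means, taken by number, had correlations of -0.272, 0.0664, 0.0489 and -0.0998, and 1 of 8 libraries correlated best with its own number, so no pairing is taken from the numbers. The replicate block on those 8 libraries called 107 genes and 1 other zinc and metal gene, FTH1, against 733 and 3 without the block. With the block SLC39A8 was at -2.14 and no longer past the threshold. The block put SLC39A10 at -0.213, MT2A at 0.0807 and MT1F at 0.487. Without the replicate block on the same 8 libraries these last 3 were at -0.303, 0.0886 and 0.383.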
